A study of Mus musculus with 6 samples.

Results

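CTCF sites that were called in the distal forelimb (DFL, the presumptive digits) and not in the proximal forelimb (PFL) numbered 4157 of the 51349 DFL CTCF sites that reached a −log10 q of 5, and 54673 DFL sites were listed in all. A DFL-only site is a CTCF peak of the DFL library with a −log10 q of at least 5 that shares no base pair with any PFL CTCF peak. The sites were thus selected on the CTCF values themselves, and their strength, length and lack of a PFL peak are given as a description. The 6 ChIP-seq samples were all wild-type B6CBAF1 mouse forelimbs labelled E12, the embryonic stage, cut into distal and proximal pieces. Each piece was profiled once for CTCF, once for H3K27ac (a histone mark of active enhancers and promoters) and once for H3K27me3 (the mark of Polycomb repression). All were reanalyses of libraries published earlier, made from tissue pooled over several embryos, so a library averages all cell types of its piece. Fewer cells with a bound site and less binding per cell cannot be told apart in such pools. With 1 library per mark and piece no p-value was computed, and the 95% Wilson intervals below cover counting error only. HOXA13 and HOXD13 peaks (together HOX13) came from the authors' lists for whole forelimbs of an earlier stage, which belong to none of the 6 samples.

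CTCF is a zinc finger protein that binds a long DNA motif of fixed direction. It halts the cohesin complex while cohesin extrudes chromatin loops, and it marks many borders of topologically associating domains (TADs). At the HoxA and HoxD clusters, such borders separate the regulatory landscapes that serve the digits from those that serve the upper limb segments. Most CTCF sites are bound in most cell types, which makes those seen in a single tissue a minority to examine. HOXA13 and HOXD13 are the transcription factors of the digit program and their genes are expressed in the distal limb bud.

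Among the CTCF core matches of DFL-only sites, a single 12-letter word was the most frequent. The conserved core of the CTCF motif was searched as CCANNAGNNGGC on both strands within 100 bp of the peak summit, and 1454 of the 4157 DFL-only sites (35.0%, 33.5 to 36.4) held it. The same search found the core at 39.8% of all DFL sites and in 1.04% of genome windows of the same length. Of the 1454 DFL-only sites with a core, 905 (62.2%, 59.7 to 64.7) carried CCAGAAGAGGGC, or 21.8% of all DFL-only sites. The next word, CCAGAAGGGGGC, was found at 65. At weak CTCF sites in general, most of the core matches were the first word. At a −log10 q of 5 to 10 it made up 62.9% of DFL-only cores. At the same strength it made up 56.6% at DFL sites with a PFL peak and 59.0% at PFL sites without a DFL peak. The first word occurs 50358 times in the chromosomes used, and 99.6% of these copies lie in letters that the reference marks as repeats. At DFL-only sites 902 of the 905 copies were in such letters. Rodent B2 short interspersed elements are known to carry a CTCF motif, but repeat families were not assigned here. A pair of flank types recurred next to this word, which are shown as the most frequent letter at each position, 5′ to 3′, with the core in capitals.
First type: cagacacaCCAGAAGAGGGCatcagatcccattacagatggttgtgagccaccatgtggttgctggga
Second type: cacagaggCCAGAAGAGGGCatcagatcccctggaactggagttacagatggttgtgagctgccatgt
Over the 56 letters outside the core, 367 of the 905 sites matched the first type at 70% or more and 97 the second. Single sites on mm10 are shown next as examples, namely those of the second type near Nipal1 (78.6% of the 56 letters) and Epm2a (78.6%).
Nipal1, chr5:72683401-72683468, minus strand: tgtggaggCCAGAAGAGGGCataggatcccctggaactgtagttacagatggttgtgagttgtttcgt
Epm2a, chr10:11834172-11834239, plus strand: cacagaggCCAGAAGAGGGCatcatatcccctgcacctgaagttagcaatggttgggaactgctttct

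Several of the strongest DFL-only sites had no core match and are shown for that reason. In the 101 bp around their summits the stretch closest to the core is in capitals. The site in Srrm4 was the strongest with a core match. At the strongest site of all (near Skap2) the best stretch differed from the 8 fixed core letters at 3 of them, and at the sites near Pitpnb and Gm11114 at 2. The site near Cplane1, which lies in a coding exon of Nipbl, and the site next to Hoxa13 differed at 1.
Srrm4, chr5:116538663-116538763, plus strand: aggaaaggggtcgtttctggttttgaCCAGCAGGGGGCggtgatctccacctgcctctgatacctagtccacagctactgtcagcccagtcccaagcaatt
Skap2, chr6:51932109-51932209, minus strand: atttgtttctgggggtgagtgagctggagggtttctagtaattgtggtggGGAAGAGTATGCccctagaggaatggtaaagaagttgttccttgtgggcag
Gm11114, chr9:84949206-84949306, minus strand: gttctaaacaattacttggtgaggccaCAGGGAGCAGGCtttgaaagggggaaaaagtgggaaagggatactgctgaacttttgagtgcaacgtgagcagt
Pitpnb, chr5:111303796-111303896, plus strand: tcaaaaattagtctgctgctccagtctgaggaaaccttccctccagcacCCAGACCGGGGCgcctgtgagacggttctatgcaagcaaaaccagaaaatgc
Cplane1, chr15:8291354-8291454, minus strand: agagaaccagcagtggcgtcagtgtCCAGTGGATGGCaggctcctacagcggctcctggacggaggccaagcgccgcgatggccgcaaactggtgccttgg
Hoxa13, chr6:52264927-52265027, minus strand: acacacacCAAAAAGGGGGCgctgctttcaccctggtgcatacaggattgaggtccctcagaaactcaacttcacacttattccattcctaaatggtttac

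DFL-only sites were the weak end of the DFL CTCF list. Of the 51349 DFL sites compared, 8.1% had no PFL counterpart, and of the 50488 PFL sites at the same −log10 q, 6.26% (3159) had no DFL counterpart. Fold enrichment, the summit pileup over the local background, had a median of 3.75 at DFL-only sites and 9.06 at the 47192 DFL sites that had a PFL counterpart (shared sites). PFL-only sites were alike in this, with a median fold of 3.61. The median −log10 q was 7.85 at DFL-only sites and 51.6 at shared sites. The median length was 256 bp for DFL-only and 411 bp for shared sites. Only 1045 DFL-only sites reached a −log10 q of 10, 251 reached 15 and 64 reached 20. Just inside the threshold were sites with −log10 q of 5.001, 5.002 and 5.007, and just outside it sites with 4.988, 4.988 and 4.984, with folds of 3.01 to 3.21 inside and 2.9 to 3.14 outside.

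Strength and the lack of a counterpart went closely together. Among DFL sites with a −log10 q of 5 to 7.5, 1934 of 4224 (45.8%, 44.3 to 47.3) had no PFL counterpart. The share was 31.8% at 7.5 to 10, 17.0% at 10 to 15 and 5.01% at 15 to 20. At 20 and over it was 64 of 35000 sites, or 0.183% (0.143 to 0.233). The PFL list fell in the same way, from 39.0% to 0.107%. Shared DFL sites of the lowest class were themselves met by PFL peaks with a median −log10 q of 8.54, and 5% of those PFL peaks were below 3.9.

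**Figure D1:**
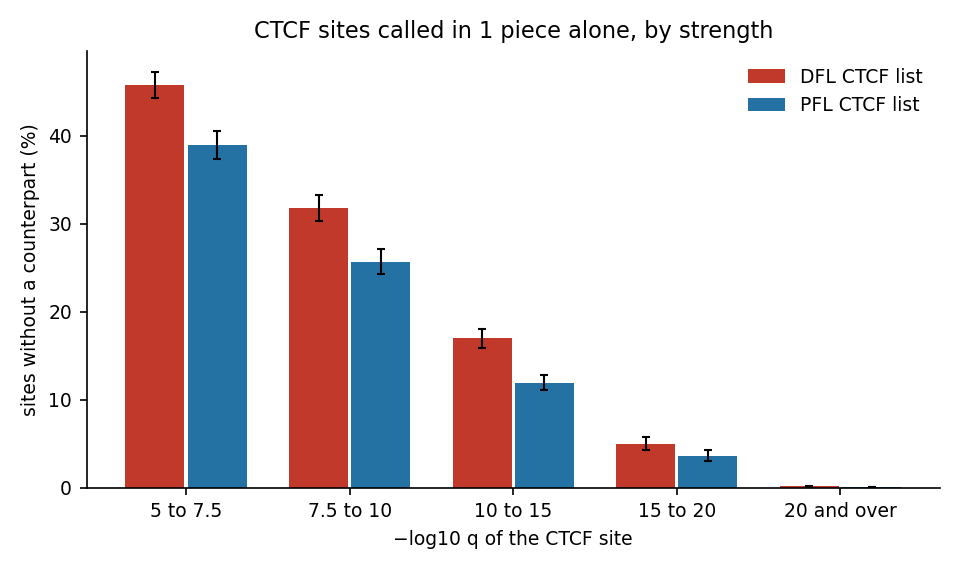
Share of CTCF sites without a counterpart in the other piece (percent, vertical axis) by −log10 q of the site (horizontal axis), for the DFL list (red) and the PFL list (blue); bars are shares and whiskers 95% Wilson intervals. The share falls from 45.8% to 0.183% in DFL and from 39.0% to 0.107% in PFL.

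The pileups behind these values were small. Worked back from each line's fold and −log10 p, the summit of a DFL-only site held 24 to 131 fragments with a median of 29, and 3254 sites (78.3%) stood over the lowest background of the DFL library, 6.47 fragments. The PFL library was the deeper by this measure, with a lowest background of 7.31 fragments (1.13 times that of DFL). Over that lowest background, its weakest peak had 18 fragments at the summit. Scaled by this background ratio, the 3254 sites would have stood at 1.51 to 4.46 times that weakest PFL peak, with a median of 1.76. Of them, 727 would have stood at more than 2 times. The rule selected the sites on these DFL pileups, which started at 24 fragments, so the ratios are a description. Whether PFL signal was lower at these sites was not tested. At shared sites, though, the pileup ratio of DFL to PFL had medians of 0.959 to 0.989 by chromosome. Scaling by background alone may therefore set the expected PFL pileups too high. The lack of a PFL peak thus bounds the PFL signal rather than setting it at 0. PFL peaks were not far away at many sites. The median distance to the closest one was 11322 bp, 1927 sites had one within 10 kb and 290 within 1000 bp.

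H3K27ac regions of DFL overlapped 434 of the 4157 DFL-only sites (10.4%, 9.55 to 11.4), and those of PFL overlapped 407 (9.79%, 8.92 to 10.7). Over all 51349 DFL sites the shares were 14.3% and 15.6%. Shared sites stood at 14.7% and 16.1%, and PFL-only sites at 12.1% and 15%. The difference changed with strength. At a −log10 q of 5 to 7.5, DFL H3K27ac was at 9.98% (8.72 to 11.4) of DFL-only and 14.1% (12.7 to 15.5) of shared sites. At 15 to 20 it was at 16.6% (11.9 to 22.6) and 11.6% (10.5 to 12.7), with overlapping intervals, and at 20 and over at 14.1% and 15.5%. For PFL H3K27ac the shares were 9.67% and 16.2% at 5 to 7.5, and 12.8% and 12.3% at 15 to 20. DFL-only sites are shorter than shared sites, which bears on an overlap of 1 bp. When the summit itself had to lie in a DFL H3K27ac region, the DFL-only share was 8.78% (7.96 to 9.68) and the shared one 7.98% (7.74 to 8.23), so the order of those groups turned for this list. It did not for PFL H3K27ac, with 8.08% of DFL-only and 8.65% of shared sites, and PFL-only sites stood highest for both lists with 9.88% and 11.9%. Most of the marked DFL-only sites, 361, had H3K27ac in both pieces, and 238 of those 361 lay within 2 kb of a gene start.

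Over all strengths, H3K27ac found in PFL alone was rarer at DFL-only than at shared sites, while the shares with H3K27ac in DFL alone had overlapping intervals. Among DFL-only sites 73 (1.76%, 1.40 to 2.20) overlapped H3K27ac in DFL alone and 46 (1.11%, 0.831 to 1.47) in PFL alone. Shared sites had 704 (1.49%, 1.39 to 1.61) against 1406 (2.98%, 2.83 to 3.14), and PFL-only sites had 28 (0.886%) against 119 (3.77%). The PFL H3K27ac list is the longer of the pair, with 69503 regions against 59804, which all 3 groups share. The stronger classes gave small counts. Of the 187 DFL-only sites with a −log10 q of 15 to 20, 8 had H3K27ac in DFL alone and 1 in PFL alone, and of the 64 at 20 and over the counts were 5 and 0. The intervals of such small counts are wide, 3.38 to 17.0% for the 5 and 0 to 5.66% for the 0.

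H3K27me3 was rare at DFL-only sites. It covered 60 of them in DFL (1.44%, 1.12 to 1.85) and 85 in PFL (2.04%, 1.66 to 2.52), against 2.11% and 3.2% of all DFL sites. The only one of the 64 strongest sites with this mark in either piece was at the start of Cdx4, a homeobox gene of the trunk, with a −log10 q of 22.4. In all, 3444 DFL-only sites (82.8%, 81.7 to 84.0) overlapped no region of the other 6 lists, against 73.0% of shared and 79.3% of PFL-only sites.

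**Figure D2:**
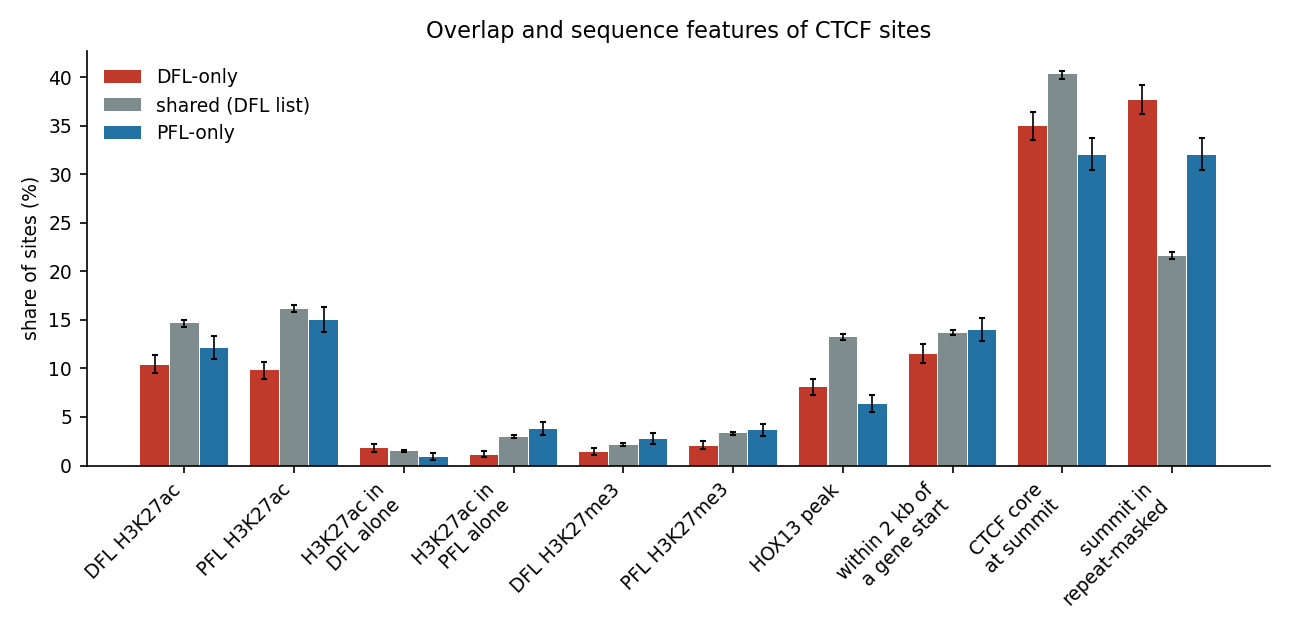
Share of DFL-only (red, n = 4157), shared (grey, n = 47192) and PFL-only CTCF sites (blue, n = 3159) that have each feature on the horizontal axis (percent, vertical axis), with 95% Wilson intervals. DFL-only sites are lowest for both H3K27ac lists and highest for summits in letters marked as repeats, at 37.7%, without regard to strength.

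HOX13 peaks overlapped 336 DFL-only sites (8.08%, 7.29 to 8.95), against 12.8% of all DFL sites, 13.2% of shared and 6.36% of PFL-only sites. With the CTCF summit inside the HOX13 peak, the shares were 5.22% of DFL-only, 8.24% of shared and 4.31% of PFL-only sites. The order by overlap changed with strength, and most shared sites are far stronger. At a −log10 q of 5 to 7.5, the DFL-only share was 7.29% (6.21 to 8.54), where shared sites had 6.55% (5.61 to 7.64) and PFL-only sites 6.74%. At 7.5 to 10 the DFL-only share was 7.64% (6.26 to 9.30) against 7.19% (6.25 to 8.27) for shared sites. At 10 to 15 it was 8.69% (6.92 to 10.9) against 6.48% (5.75 to 7.30) for shared sites. At 15 to 20 it was 12.8% (8.78 to 18.4) against 7.25% (6.44 to 8.15), and these intervals do not overlap. PFL-only sites of that class stood at 5.60% (2.74 to 11.1). At 20 and over, 12 of the 64 DFL-only sites (18.8%, 11.1 to 30) had a HOX13 peak, but the shared sites of that class reach far higher values and had 15.4%.

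DFL-only sites with a HOX13 peak seldom had a CTCF core. The core was found at 43 of the 336 (12.8%, 9.64 to 16.8) and at 1411 of the 3821 others (36.9%, 35.4 to 38.5). PFL-only sites had a like gap, 11.4% (7.75 to 16.6) with and 33.4% without a HOX13 peak. At shared sites the shares were 33.3% and 41.3%. None of the 12 strong DFL-only sites with a HOX13 peak held the core, while 23 of the 52 without one did. The CTCF summits of DFL-only sites lay a median of 166 bp from those of HOXA13 and 151 bp from those of HOXD13, and 15.4% and 14.7% of the pairs lay within 50 bp. The medians were 145 and 116 bp at shared sites, with 15.9% and 22.6% within 50 bp, and 150 and 118 bp at PFL-only sites, with 12.4% and 16.3%. HOX13-bound DFL-only sites also carried H3K27ac in DFL alone at 8.04% (5.58 to 11.4) and in PFL alone at 2.08% (upper bound 4.24). HOX13-bound shared sites had 3.41% (2.98 to 3.89) and 4.60% (4.10 to 5.15), and HOX13-bound PFL-only sites 4.48% (2.37 to 8.29) and 7.46% (4.57 to 11.9).

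**Figure D3:**
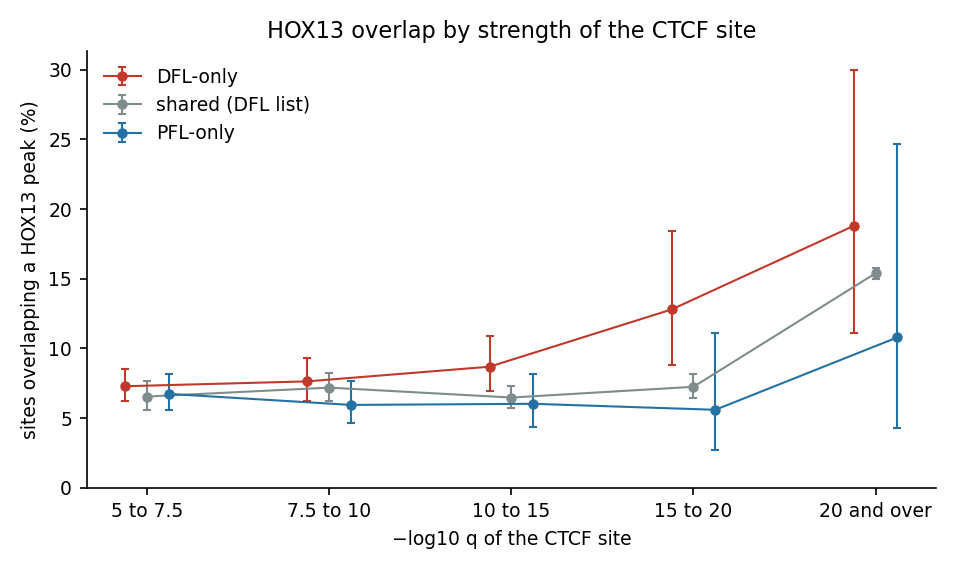
Share of CTCF sites that overlap a HOXA13 or HOXD13 peak (percent, vertical axis) by −log10 q of the CTCF site (horizontal axis) for DFL-only (red), shared (grey) and PFL-only sites (blue); points are shares and whiskers 95% Wilson intervals. The DFL-only share goes from 7.29% in the weakest class to 18.8% in the strongest, and the widest intervals belong to the classes with the fewest sites.

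The CTCF core was found at 35.0% of DFL-only, 40.3% of shared (39.8% of all DFL sites) and 32% of PFL-only sites. At equal strength DFL-only and shared sites were closer. At a −log10 q of 5 to 7.5 the shares were 33.8% (31.7 to 36) and 34.9% (33 to 36.9), at 7.5 to 10 they were 37.5% and 35.3%, and at 10 to 15 they were 34.3% (31 to 37.6) and 38.6% (37.1 to 40.2), all with overlapping intervals. Allowing 1 of the 8 fixed letters to differ gave 69.5%, 80.3% and 67.2%, beside 12.9% of genome windows. Core matches at DFL-only sites were split evenly between the strands, 736 on plus and 718 on minus. They lay a median of 21.5 bp from the summit, against 13.5 bp at shared sites and 21.5 bp at PFL-only sites. Of the other motifs searched, CAATAAA, a HOX13 motif, was at 3.08% of DFL-only and 2.93% of shared sites (5.85% of genome windows), and TGANTCA, the AP-1 motif, at 6.11% (5.42 to 6.88) and 5.22% (5.02 to 5.42), beside 5.96% of genome windows. GGGCGG, the GC box of many promoters, was rarer at DFL-only sites, at 6.11% (5.42 to 6.88) against 7.95% (7.71 to 8.20) of shared and 6.27% of PFL-only sites (1.97% of genome windows).

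Summits lay in letters marked as repeats at 37.7% of DFL-only and 21.6% of shared sites. At a −log10 q of 5 to 7.5 the shares were 37.6% (35.5 to 39.8) and 35.6% (33.7 to 37.6), and at 10 to 15 they were 38% and 34.7%, while shared sites of 20 and over stood at 17.2%. Cores in repeats accounted for most of the core matches. The core lay in letters marked as repeats at 1150 of the 1454 DFL-only sites with a core (79.1%, 76.9 to 81.1), at 43.6% of shared and at 72.5% of PFL-only sites. The word CCAGAAGAGGGC alone made up 62.2%, 30.3% and 55.9% of the cores. Much of this difference went with strength. At a −log10 q of 5 to 10 the word made up 62.9% (60.0 to 65.7) of DFL-only, 56.6% (54.2 to 58.9) of shared and 59.0% of PFL-only cores, and at 10 to 20 it made up 61.2% (55.9 to 66.3), 53.6% (51.8 to 55.4) and 46.1%. The first of the sequence types shown above was found at 40.6% of DFL-only, 22.7% of shared and 52.7% of PFL-only sites with the word. Reads that map to several places were removed by the authors' filter on mapping quality, so signal in young repeats can be incomplete in both libraries.

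Sites with the repeat word had few other marks. Of the 905, 6 overlapped DFL H3K27ac (0.663%), 17 a HOX13 peak (1.88%) and 878 no other list (97.0%). PFL-only sites with the word had 0.885%, 1.24% and 97.2%, and shared sites with it 2.98%, 4.56% and 92.2%. DFL-only sites with another core word stood at 3.10%, 4.74% and 92.5%, and those without a core had DFL H3K27ac at 15.2% and a HOX13 peak at 10.8%. By position, 1885 DFL-only sites were in introns (45.3%), 1620 between genes (39.0%) and 479 within 2 kb of the start of a protein-coding transcript (11.5%, against 13.5% of all DFL sites).

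**Figure D4:**
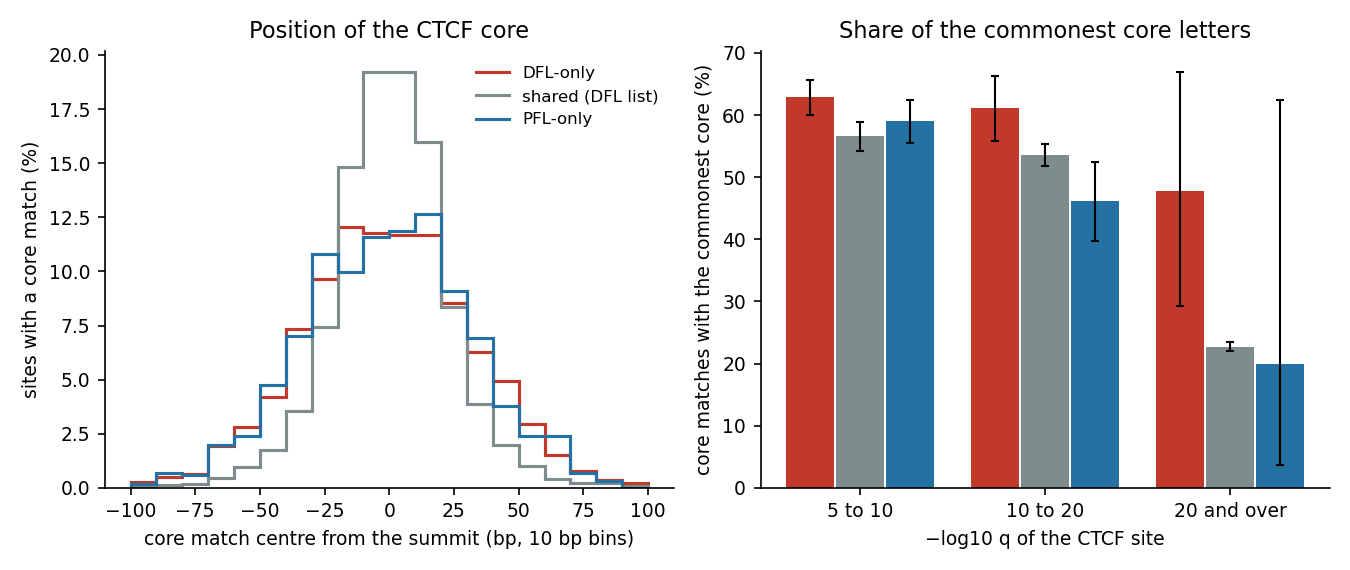
Left, position of the CTCF core match closest to the summit (bp from the summit, 10 bp bins, horizontal axis) as a percent of the sites with a match (vertical axis); right, percent of core matches that are the commonest 12-letter core, by −log10 q of the site, with 95% Wilson intervals. Colours mark DFL-only (red), shared (grey) and PFL-only sites (blue); cores of shared sites crowd closer to the summit, and the commonest core makes up 62.9% of DFL-only cores in the weakest class.

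Among the 64 DFL-only sites with a −log10 q of at least 20, 33 were in introns, 27 between genes, 3 at promoters and 1 in a coding exon, and 48 overlapped no other list. The strongest of all, chr6:51931951-51932346, lay in an intron of Skap2, with a fold of 9.64, a −log10 q of 45.5 and 71 fragments at the summit. It overlapped a HOXA13 peak of fold 4.32 and a HOXD13 peak of fold 2.83, and the closest PFL CTCF peak was 55533 bp away. Of the 6 strongest sites, a cut made after the values were seen, 4 overlapped both HOX13 lists, namely those near Skap2, Gm11114, Pitpnb and Smyd3. Both lists overlapped 9 of the 64 (14.1%), 4.38% of all DFL-only sites and 7.32% of shared sites at 20 and over. At Skap2 the HOXA13 summit was 713 bp from the CTCF summit, and the HOXD13 fold was above only 30.7% of its list. The site near Gm11114 (chr9:84949082-84949435, −log10 q 35.4) was 363517 bp from the start of that gene and 378484 bp from any PFL CTCF peak. The site near Pitpnb (chr5:111303677-111304022, 35.3) had a PFL peak 687 bp away. At the site in an intron of Smyd3 (chr1:179410715-179411076, 30.7) the HOXA13 peak had a fold of 9.16, above 94.3% of that list.

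DFL-only sites without a core but with DFL H3K27ac were led by a site in an intron of Zfp521 on chromosome 18, which encodes a zinc finger protein (−log10 q 30.6). Its HOXA13 and HOXD13 peaks had folds of 10.2 and 10.48, and H3K27ac was called there in DFL alone, weakly, at a fold of 2.11. A site in an intron of Commd10, also on chromosome 18, followed with 27.8 and had H3K27ac in both pieces. The site in a coding exon of Nipbl, the gene of the factor that loads cohesin, had a −log10 q of 26, both HOX13 peaks and H3K27ac in DFL alone (nearest gene start Cplane1, 122298 bp away). Sites near Tmem131l (25.1, H3K27ac in both pieces) and Fam240b (23.3, H3K27ac in DFL alone and a HOXA13 peak) completed the 5. Without H3K27ac and core, the sites near Atp8b1 (40.1) and Snx2 (31.3), both on chromosome 18, stood beside those of Skap2, Gm11114 and Pitpnb. They were 102671 bp from the Atp8b1 start and 200636 bp from the Snx2 start.

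With a core and no DFL H3K27ac, the strongest sites were those in an intron of Srrm4 (−log10 q 29.2, 63 fragments), near Spag17 (28.7), near Nipal1 (24.2), 490800 bp from the Epm2a start (24.2) and in an intron of Plpp4 (22.4). None of these overlapped a HOX13 peak. Core and DFL H3K27ac came together at only 23 DFL-only sites. The strongest were at the starts of 2310030G06Rik (17.0), Ppara, which encodes a nuclear receptor of fatty acid metabolism (16.6), and Mgat1, an enzyme of glycan synthesis (14.2). A site 81434 bp from the Vgll2 start (12.7) followed. The last, in an intron of Anks1b (11.9), was 363943 bp from the closest gene start, that of Apaf1.

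The HoxA landscapes, taken from Snx10 to Jazf1, held 11 DFL-only sites among 65 DFL CTCF sites (16.9%, 9.72 to 27.8), beside the 8.1% of all DFL sites, and 3 PFL-only sites among 58 (5.17%, 1.77 to 14.1). The strongest was the site in Skap2 described above, 328721 bp from the Hoxa13 start. The next was 4097 bp upstream of Hoxa13, in an intron of the long non-coding RNA gene Hottip (chr6:52264842-52265131), with a fold of 5.89 and a −log10 q of 19. It overlapped H3K27ac in DFL alone, at a fold of 1.55, and the closest PFL CTCF peak was 5217 bp away. H3K27ac within 50 kb of Hoxa13 covered 24967 bp in DFL and 14774 bp in PFL, and at the proximal gene Shox2 it covered 1519 bp and 5533 bp. Msx1 and Msx2 also had more in DFL, and Meis1, Meis2 and Pkdcc more in PFL, which is the order the labels give. The difference at Meis1 was small, 2547 bp in DFL and 2952 bp in PFL, and the PFL H3K27ac list is the longer of the pair.

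Of the other 9 HoxA sites, 1 lay between Snx10 and Skap2 at a −log10 q of 15.8 (chr6:51808104-51808364) and 62 bp from a DFL H3K27ac region. Another stood in an intron of Jazf1 at 14.2 (chr6:53021026-53021435), with H3K27ac in DFL alone. The remaining 7 had −log10 q of 5.9 to 10.6. Those between Snx10 and Skap2 and near Evx1 had no mark. The weakest, at 5.9 in Jazf1, overlapped H3K27ac in both pieces and HOX13 peaks with folds of 6.44 for HOXA13 and 7.42 for HOXD13.

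**Figure D5:**
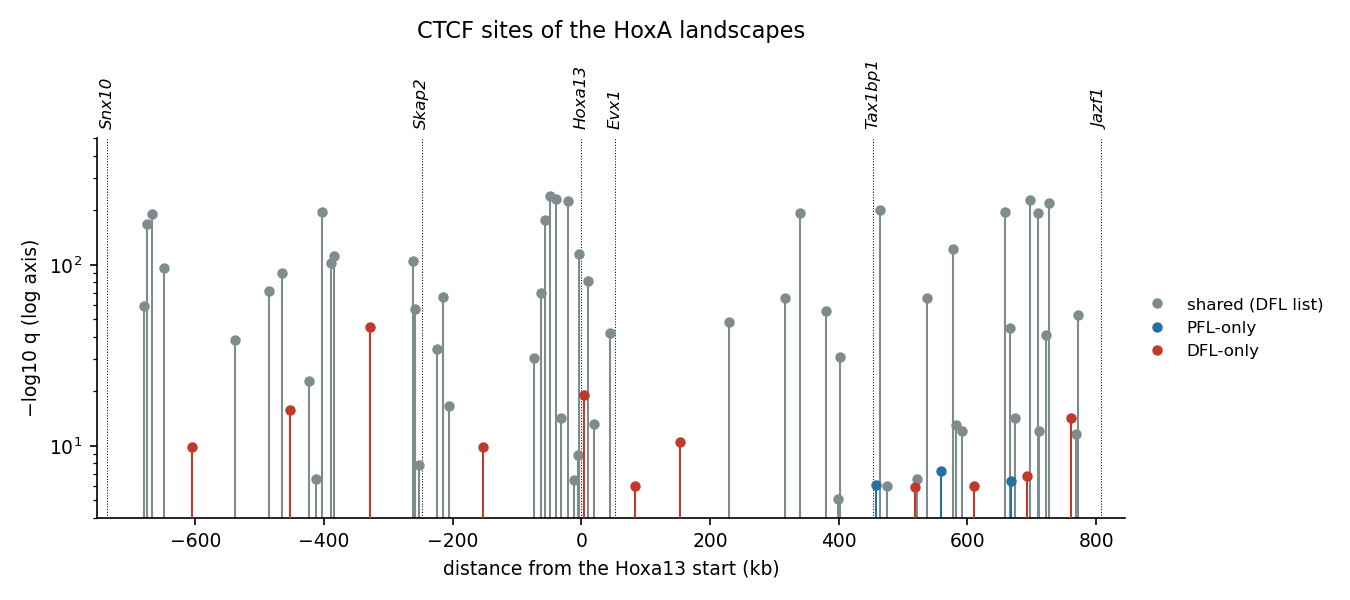
CTCF sites of the HoxA landscapes by distance from the Hoxa13 start (kb, horizontal axis) and −log10 q (vertical axis, log scale); red marks the 11 DFL-only, blue the 3 PFL-only and grey the 54 shared sites, and dotted lines mark gene starts. The strongest red point, at 45.5, lies in Skap2.

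In the HoxD landscapes, from Atp5g3 to Hnrnpa3, 3 of 46 DFL CTCF sites were DFL-only (6.52%, 2.24 to 17.5). The strongest (chr2:74977421-74977775, −log10 q 21.2) lay 151765 bp downstream of the Mtx2 start in T-DOM, the landscape on the telomeric side. C-DOM, the landscape of the digit enhancers on the other side, held the remaining pair, at −log10 q of 11.3 (chr2:74294272-74294553) and 6.0 (chr2:74453354-74453716), 373904 and 214778 bp from the Hoxd13 start. None of the 3 overlapped H3K27ac, H3K27me3 or a HOX13 peak. The first C-DOM site was 862 bp from a DFL H3K27ac region and the second, which had a core match, 1390 bp from a HOXD13 peak.

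Around genes of limb patterning, DFL-only sites lay within 50 kb of the start of 14 of the 29 distal limb genes (48.3%), while 20.9% of the 21701 genes had one. The 29 genes also sit among more CTCF sites in general, with a median of 4 shared sites per gene against 3 over all genes. A shared site was near 96.6% of them and near 84.5% of all genes. The gene list was chosen with earlier results of these data known. These shares are therefore a description, and a link of DFL-only sites to distal genes was not tested. PFL-only sites were near 5 of the 29 (17.2%), against 18% of all genes. Some genes of the list share a site, so the 14 genes had 18 distinct DFL-only sites with −log10 q from 6.0 to 19. For the 20 proximal limb genes the DFL-only count was 7 (35.0%), and Hoxa9 and Hoxa10 were counted for the site upstream of Hoxa13.

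Of the distal genes, Msx1, a homeobox gene of the limb tip, had a pair of DFL-only sites 19778 and 14780 bp from its start. The former overlapped H3K27ac in DFL alone and the latter both HOX13 lists. Ptch1, the receptor of hedgehog ligands, had sites 84 and 7084 bp from its annotated start (−log10 q 6.0 and 8.5), and both had H3K27ac in both pieces and both HOX13 peaks. Tbx3, a T-box gene, had a pair with core matches (11.2 and 7.2), as did Fgf8, a growth factor gene of the apical ridge (9.2 and 7.8). Bmp7, a secreted growth factor, had 3 sites at 8.3, 6.8 and 6.5, and a PFL CTCF peak lay 997 bp from the site at 6.8. Single sites were near Dlx5 and Dlx6 (8.5, shared by both genes), Lhx2 (12.7), Sall3 (6.4), Sall4 (9.9), Tfap2b (6.6) and Wnt5a (6.0).

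Of the proximal genes, Meis1, a homeobox gene of the upper limb, had the strongest DFL-only site of all lists. It spanned 699 bp and lay 204 bp from the Meis1 start (chr11:19018271-19018969) with a fold of 5.73 and a −log10 q of 20.5, with H3K27ac in both pieces and no core match. Tbx5, which starts the forelimb program, had a site 194 bp from its annotated start (7.2) with both HOX13 peaks and H3K27ac in PFL alone. Irx5 had 3 sites (10.6, 8.8 and 7.4), and Meis2 had 1 (6.4). A PFL CTCF peak lay 160 bp from the weakest Irx5 site and another 658 bp from the Meis2 site. None of the 8 distinct proximal sites held a core.

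DFL-only sites were near 5 of the 15 cartilage genes (33.3%), among them Ihh (13.1), Sox5 (7.2) and Gdf5 (9.2), and near 4 of the 11 genes of CTCF and cohesin (36.4%), with the site 28634 bp from Rad21, a cohesin subunit, at 18.2. For the cell types that a limb piece also holds, the counts were 3 of 12 muscle and 4 of 9 endothelial genes. They were 2 of 8 blood, 3 of 9 ectodermal and 0 of 7 nerve and glia genes. The 3 ectodermal genes had 2 distinct sites, since Krt8 and Krt18 share a site. Of all genes, 20.9% had a DFL-only site. PFL-only sites were near 3 cartilage, 2 CTCF and cohesin, 2 muscle and 1 endothelial genes. They were also near 1 blood, 0 ectodermal and 1 nerve and glia genes. These lists are short, and a difference from the share of all genes was not tested. Sites near Cdh5 (13.5) and Erg (11.3) were the strongest of the endothelial list and those near Krt8 (14.8) and Pax3 (10.5) of the ectodermal and muscle lists. A PFL CTCF peak lay 310 bp from the Krt8 site and another 994 bp from the Cdh5 site. The part of these cell types in the DFL-only calls was not tested.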

How the data were processed

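CTCF, H3K27ac and H3K27me3 ChIP-seq of DFL and PFL, 1 library each, were used as deposited peak lists, with the HOXA13 and HOXD13 lists. Per the labels, cutadapt, Bowtie, SAMtools and MACS2 were run on mm10. According to the methods, the authors filtered reads on mapping quality and called peaks per library without an input control. The deposited columns hold a fold enrichment (a ratio to the local background) and −log10 p and −log10 q. The deposited signal column 7 is this fold, and the summit is an offset from the start in bp. Read totals are not in the lists, so depth was taken from pileups solved from fold and −log10 p by the Poisson tail (tolerance 0.01, tested on simulated data).

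Lines sharing an interval were collapsed, keeping the highest −log10 q, on the 19 autosomes and X. Overlap meant at least 1 bp. Motifs were searched in GRCm38 (mm10), soft-masked, within 100 bp of the summit. Genes were GENCODE vM21 (21701 protein-coding genes with a unique symbol). Named sites were the 5 highest by −log10 q in each of 4 classes of core match and DFL H3K27ac, those within 50 kb of listed genes and those of the Hox landscapes. Outside the gene lists, a site called near a gene is named for the closest protein-coding gene start, at any distance. Other core letters, flank types and sites outside this rule were chosen after their values were seen. The sites and gene lists were chosen with earlier results of these data known. Alternatives changed the minimum, the overlap, the motif and the gene distance. Python 3.11.15, pandas 2.3.3, numpy 2.4.6 and scipy 1.17.1 were used. Some single sites are not reported here.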

Additional observations from a re-analysis of the deposited data

How the results depend on the processing

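No paired analysis was possible because each mark and piece had 1 library and no result came from a test, and no replicate could be left out. Of 39 alternative values, 22 stayed within the main interval, or within 1.5 times the main count, and 17 moved. The count of DFL-only sites ranged from 3867 to 6176 over the alternatives, except that a −log10 q of 10 left 1045. Cutting both CTCF lists to equal length left 4157 and could not have changed it, since it drops only DFL sites already under the minimum, so it says nothing about stability although it is among the 22. Without a minimum on −log10 q the PFL H3K27ac share was 10.9% and the core share 32.9%. At a minimum of 10 the HOX13 share was 10%. Counting PFL peaks within 1000 bp as counterparts gave 9.46% for DFL and 8.77% for PFL H3K27ac. With the summit inside the other region, DFL H3K27ac fell to 8.78%, PFL H3K27ac to 8.08% and HOX13 to 5.22%, and with other lists at a −log10 q of 5 the values were 9.29%, 8.73% and 5.82%. The core share was 29.5% within 50 bp, 69.5% with 1 letter free and 41.1% by a weight matrix. Sites near gene starts were 8.25% at 1 kb and 18.8% at 5 kb. The cause of each move was not tested beyond what the setting itself counts. Depth limits the PFL side: a site without a PFL peak may carry PFL signal below that list's threshold.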

Other observations

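DFL-only sites were sometimes neighbours. In 318 places 2 DFL CTCF sites in a row lacked a PFL counterpart, in 38 places 3 and in 3 places 4. Of all DFL sites compared, 8.1% lacked a counterpart, so some such runs arise in any order. Whether there were more runs than that was not tested. The runs of 4 lay near Ajap1 (55.5 kb), Auts2 (126 kb) and Dhrs7b (21.8 kb). The last held a core match at 3 of its 4 sites, and the run near Auts2 held 2 sites with a HOX13 peak.

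Strong DFL-only sites were spread unevenly over the chromosomes. On chromosome 15, 23 of 151 DFL-only sites (15.2%, 10.4 to 21.8) reached a −log10 q of 15, against 251 of 4157 (6.04%, 5.35 to 6.80) in all, and on chromosome 18 it was 15 of 146 (10.3%, 6.33 to 16.3). These are the highest values among 20 chromosomes and were picked after all had been seen. The pileup ratio of DFL to PFL at shared sites had a median of 0.975 on chromosome 15 and 0.977 on chromosome 18, within the range of 0.959 to 0.989 over the chromosomes.

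HOX13 peaks at DFL-only sites had a median HOXA13 fold of 4.22 (quartiles 3.10 and 6.21) against 3.38 (2.82 and 4.65) and a median of 3.52 for the whole list. For HOXD13 the medians were 3.96, 3.21 and 3.33. PFL-only sites had medians of 3.54 for HOXA13 and 3.40 for HOXD13.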
